A study of Rattus norvegicus with 14 samples.

Results

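Transcript levels of 10 genes for potassium channels of heart muscle were followed through hypertrophic stimulation and inhibition of BET proteins in cultured neonatal rat ventricular myocytes. The genes are Kcnj11, Abcc9, Kcnj8, Kcnip2, Kcnd2, Kcnd3, Kcnq1, Kcnh2, Kcna5 and Kcnj2, and they were found by symbol in the array's probe table. All 10 were measured, among 13184 named genes, by 15 of the 20223 probe sets on the array. A probe set is a group of short array probes read together for a transcript. Where a gene had several, the brightest (highest mean across the arrays) gave its main values, and the others are given separately. No measured change was used to choose the genes here, although they were chosen with earlier results of these data known.

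The cells were primary ventricular myocytes of Sprague-Dawley rats aged 2 days, kept in serum-free medium after a plating step meant to remove other cell types. Every group received DMSO, the vehicle, or JQ1, an inhibitor that keeps the BET family of chromatin readers off acetylated histones. The arrays formed 5 groups. The unstimulated group had DMSO without phenylephrine, at a labelled time of 90 min (n = 3 arrays). With 100 µM phenylephrine for 6 h there were a DMSO group (n = 2) and a JQ1 group (n = 3). With 100 µM phenylephrine for 48 h there were a DMSO group (n = 3) and a JQ1 group (n = 3). Phenylephrine (PE) activates alpha1-adrenergic receptors and makes myocytes in culture enlarge. The groups with PE are called DMSO-PE and JQ1-PE where arrays are left out. The labels' protocol puts DMSO or JQ1 6 h before PE, while the design text puts PE first, so the order is not settled, and the concentration of JQ1 is not given in the sources used here. There was no group without PE at 6 h or 48 h, so the effects of PE and of culture time cannot be told apart. Below, PE raising or lowering a gene at 6 h or 48 h means a difference from the unstimulated 90 min group. Any effect of culture time is included in it. No group had JQ1 without PE. Whether the arrays of a group stem from separate cultures is not stated; if they do not, the p-values reflect technical spread.

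Potassium channels carry the outward currents that end the action potential of a heart muscle cell and hold its resting potential. ATP-sensitive channels open when ATP runs low and couple excitability to metabolism, the transient outward current shapes the early notch of the action potential, delayed rectifiers carry its repolarization, and inward rectifiers set the resting potential. Lower transient outward current and a longer action potential are known features of the hypertrophied heart.

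Promoter sequence is shown for 5 genes whose changes the results below turn on: Abcc9, Kcnip2 and Kcnd3, which fell 6 h into PE, and Kcnj8 and Kcnd2, which rose then. Each is the 250 bases before the annotated gene start, 5′ to 3′ on the gene's own strand, from the RefSeq promoter table of assembly GRCr8. Abcc9 lies at chr4:177386349-177386598, minus strand, Kcnip2 at chr1:254613899-254614148, minus strand, Kcnd3 at chr2:195626066-195626315, plus strand, Kcnj8 at chr4:177246549-177246798, minus strand and Kcnd2 at chr4:50742235-50742484, plus strand. Capitals mark matches to GGGCGG, a GC box, or GGGGTG, a core bound by KLF factors in many genes, on either strand.
Abcc9: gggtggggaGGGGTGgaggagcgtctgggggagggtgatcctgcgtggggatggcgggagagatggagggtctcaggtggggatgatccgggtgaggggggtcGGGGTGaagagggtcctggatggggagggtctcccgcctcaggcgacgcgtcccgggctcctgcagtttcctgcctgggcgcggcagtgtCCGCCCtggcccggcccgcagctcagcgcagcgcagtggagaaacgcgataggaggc
Kcnip2: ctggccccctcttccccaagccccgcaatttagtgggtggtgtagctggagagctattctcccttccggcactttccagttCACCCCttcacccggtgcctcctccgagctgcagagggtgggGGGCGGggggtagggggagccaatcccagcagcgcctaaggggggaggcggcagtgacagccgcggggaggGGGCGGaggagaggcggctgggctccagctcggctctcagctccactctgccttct
Kcnd3: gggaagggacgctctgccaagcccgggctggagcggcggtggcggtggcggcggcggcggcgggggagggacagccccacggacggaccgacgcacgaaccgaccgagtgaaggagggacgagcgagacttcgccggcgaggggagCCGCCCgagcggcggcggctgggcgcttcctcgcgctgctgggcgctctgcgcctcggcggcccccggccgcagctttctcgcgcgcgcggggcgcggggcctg
Kcnj8: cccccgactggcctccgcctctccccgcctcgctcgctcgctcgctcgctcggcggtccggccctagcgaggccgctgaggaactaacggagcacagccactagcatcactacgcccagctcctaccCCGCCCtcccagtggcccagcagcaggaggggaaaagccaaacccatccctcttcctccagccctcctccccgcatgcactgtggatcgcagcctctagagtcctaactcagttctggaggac
Kcnd2: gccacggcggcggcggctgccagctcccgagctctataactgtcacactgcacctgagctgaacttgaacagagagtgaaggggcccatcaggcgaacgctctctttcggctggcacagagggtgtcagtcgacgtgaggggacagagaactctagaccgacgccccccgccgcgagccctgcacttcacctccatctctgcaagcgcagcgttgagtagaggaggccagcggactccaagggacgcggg

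The table held promoters of 7 of the 10 genes and not of Kcnj11, Kcnq1 and Kcnh2. GGGCGG was found in 5 of these 7 (Abcc9, Kcnj8, Kcnip2, Kcnd3 and Kcnj2), against 32.4% of the 27457 promoters of the same length in the table. GGGGTG was found in 2, Abcc9 and Kcnip2, against 21.2% of all promoters. Among the 5 printed, only Kcnd2, one of the 2 that rose at 6 h, held neither. The E-box pattern CANNTG was found in 4 of the 7, against 65.2% of all promoters. The stricter E-box CACGTG, whose matches also match CANNTG, was in none of the 7, against 5.80% of all promoters. The AP-1 site TGACTCA was likewise in none, against 3.98%. The TATA box pattern TATAAA was in none, against 13.1% of all promoters. The GATA pattern AGATAA was in none, against 10.1%. The printed stretches were GC-rich, with 71.2% G and C for Abcc9, 68.0% for Kcnip2, 79.6% for Kcnd3, 66.8% for Kcnj8 and 64.0% for Kcnd2, against a median of 52.0% over all promoters. These matches describe letters in a window and say nothing of whether a factor binds there. Kcnj8 and Abcc9, which encode partner subunits, are neighbouring genes on chromosome 4, and Kcnj11 has Abcc8, the gene of another sulfonylurea receptor, beside it on chromosome 1.

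Values are log2 expression values, so a difference of 1 is a doubling. Array medians lay between 7.28 and 7.43, and arrays of a group correlated across probe sets at r of 0.9976 to 0.9986. The deposited table has no detection calls, so a value under 6.23, the 30th percentile of the genes' means, is called dim here, and a change there is of uncertain size. Of the 12 cardiomyocyte markers, 11 were measured and none was dim. Their summed level was 17.17 to 17.20 in unstimulated cells and 17.12 to 17.27 across the other groups (log2 of summed linear values). That sum is carried by the brightest markers. Of the 11, JQ1 at 48 h lowered 6 and raised 3, where 29.6% of all genes were lowered and 30% raised. With JQ1 and PE at 48 h the mean of Mb stood at 9.83 against 12.62 unstimulated. That of Tnni3 stood at 12.27 against 13.95. The part of these markers in the results below was not tested. The cultures were not free of other cells. The 10 fibroblast markers were above the dim limit, save Tcf21 with JQ1 and PE (6.15 at 6 h, 6.18 at 48 h). Their summed level was 15.71 to 15.74 unstimulated, 15.63 to 15.67 and 15.45 to 15.48 with DMSO and PE at 6 h and 48 h, and 15.40 to 15.42 and 14.48 to 14.55 with JQ1 and PE. The 10 pericyte and smooth muscle markers summed to 14.17 to 14.24 unstimulated and 14.31 to 14.57 in the other groups, with the pericyte gene Rgs5 and Notch3 dim throughout. This sum too is carried by its brightest markers, Tagln (mean 13.18 unstimulated) and Des (12.27 unstimulated, 13.25 with JQ1 and PE at 48 h). Against unstimulated cells, JQ1 with PE at 48 h lowered 7 of the 10 and raised 1. Over all genes 29.2% were lowered and 31.6% raised there. Of 8 endothelial markers measured, Pecam1, Vwf, Tie1 and Emcn were dim in all 5 groups. Tek (7.21), Kdr (7.39), Egfl7 (7.80) and Esam (7.78) were above the limit in unstimulated cells. JQ1 at 48 h lowered 4 of the 8 and raised 1, against 29.6% and 30% of all genes. The summed level of the 8 was 9.71 to 9.73 unstimulated, and 9.67 to 9.75 and 9.57 to 9.62 with DMSO and PE at 6 h and 48 h. With JQ1 and PE it was 9.43 to 9.59 and 9.42 to 9.43. The 8 macrophage markers, 3 of them dim in all groups, summed to 9.42 to 9.48 unstimulated and 8.68 to 8.72 with JQ1 and PE at 48 h. For the 6 neural and Schwann markers measured, 3 of them dim in all groups, the sums were 9.15 to 9.20 and 8.32 to 8.39. With DMSO and PE at 6 h both lists stood higher than unstimulated, at 9.50 to 9.71 and 9.38. In such bulk samples, fewer cells of a type and less RNA per cell cannot be told apart.

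The gene with the widest range belonged to the ATP-sensitive channel of heart muscle. Kcnj11 encodes Kir6.2, its pore, and Abcc9 encodes SUR2, the sulfonylurea receptor that surrounds the pore in ventricular muscle. Both fell with PE and fell further with JQ1. Kcnj11 had the widest range of the 10 genes, a span of 4.08 between its highest and lowest group means, and 99.9% of all genes had a smaller span. Kcnip2 came next with a span of 2.58, ahead of Abcc9 with 1.70.

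Kcnj11 read 9.93, 9.97 and 9.96 on the unstimulated arrays. The DMSO-PE values were 8.64 and 8.68 at 6 h, and 9.03, 8.92 and 9.02 at 48 h. Under JQ1 and PE the arrays read 5.78, 5.98 and 5.87 at 6 h, and 7.45, 7.54 and 7.38 at 48 h. The 5 groups did not overlap, in the order unstimulated, PE at 48 h, PE at 6 h, JQ1 with PE at 48 h and JQ1 with PE at 6 h. PE for 6 h lowered Kcnj11 by 2.45-fold (log2 change -1.29 ± 0.062, standard error of the fit here and below; adjusted p = 1.4e-08). At 48 h the fall was 1.95-fold (-0.96 ± 0.056, adjusted p = 3.6e-08), and PE at 48 h lay above PE at 6 h by 0.33 ± 0.062 (adjusted p = 0.00122). Against DMSO with PE at the same time, JQ1 lowered Kcnj11 by 6.88-fold at 6 h (-2.78 ± 0.062, adjusted p = 2.1e-11) and by 2.90-fold at 48 h (-1.53 ± 0.056, adjusted p = 1.3e-10). The JQ1 effect differed between the times by 1.25 ± 0.083 (interaction, adjusted p = 2.1e-07). Against unstimulated cells, JQ1 with PE stood 16.9-fold lower at 6 h, where all 3 arrays were dim, and 5.64-fold lower at 48 h.

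Abcc9 read 10.16, 10.10 and 10.08 unstimulated. DMSO with PE gave 9.60 and 9.83 at 6 h and 9.04, 9.15 and 9.09 at 48 h. The JQ1 arrays read 8.69, 8.59 and 8.79 at 6 h and 8.39, 8.44 and 8.42 at 48 h. The groups again did not overlap, but in another order, with both 48 h groups under their 6 h counterparts. PE lowered Abcc9 by 1.32-fold at 6 h (-0.40 ± 0.070, adjusted p = 0.000638) and 2.03-fold at 48 h (-1.02 ± 0.062, adjusted p = 5.7e-08), a further fall of 0.62 between the times (adjusted p = 2.3e-05). JQ1 lowered it by 2.03-fold at 6 h (-1.02 ± 0.070, adjusted p = 8.5e-08) and 1.60-fold at 48 h (-0.68 ± 0.062, adjusted p = 7.8e-07). That difference between times was 0.35 ± 0.093 (adjusted p = 0.0105). It was 0.23 (adjusted p = 0.0637) without replicate 2 of the DMSO-PE group at 6 h, the higher of that pair.

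Kcnj8 encodes Kir6.1, the pore of ATP-sensitive channels best known from vascular smooth muscle. It was dim in 4 of the 5 groups. It read 5.48, 5.71 and 5.63 unstimulated, 5.95 and 6.05 with PE at 6 h, and 5.87, 5.81 and 5.69 with PE at 48 h. On the JQ1 arrays the values were 6.39, 6.23 and 6.27 at 6 h and 5.79, 5.47 and 5.58 at 48 h. The 6 h arrays lay above all others, and the unstimulated and 48 h groups overlapped. Kcnj8 rose with PE at 6 h (0.39 ± 0.095, adjusted p = 0.00581) and again with JQ1 at 6 h (0.30 ± 0.095, adjusted p = 0.0172), while its pairs of means at 48 h differed by 0.19 for PE (adjusted p = 0.0933) and -0.18 for JQ1 (adjusted p = 0.0867), which passed without replicate 1 of the JQ1-PE group at 48 h (-0.27, adjusted p = 0.0111). The JQ1 effect differed between the times by -0.48 ± 0.13 (adjusted p = 0.00954). The PE call at 6 h was lost without replicate 2 of the DMSO-PE group at 6 h (0.34, adjusted p = 0.0538). The JQ1 call at 6 h was lost without replicate 1 of the DMSO-PE group at 6 h (0.25, adjusted p = 0.119) or without replicate 1 of the JQ1-PE group at 6 h (0.25, adjusted p = 0.0607). Of the 10 pericyte and smooth muscle markers, 6 rose and 2 fell with PE at 6 h, and 2 rose and 7 fell with JQ1 at 6 h, where 18.3% and 18.9%, and 25.5% and 28.8%, of all genes rose and fell; their part in the Kcnj8 values was not tested.

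**Figure D1:**
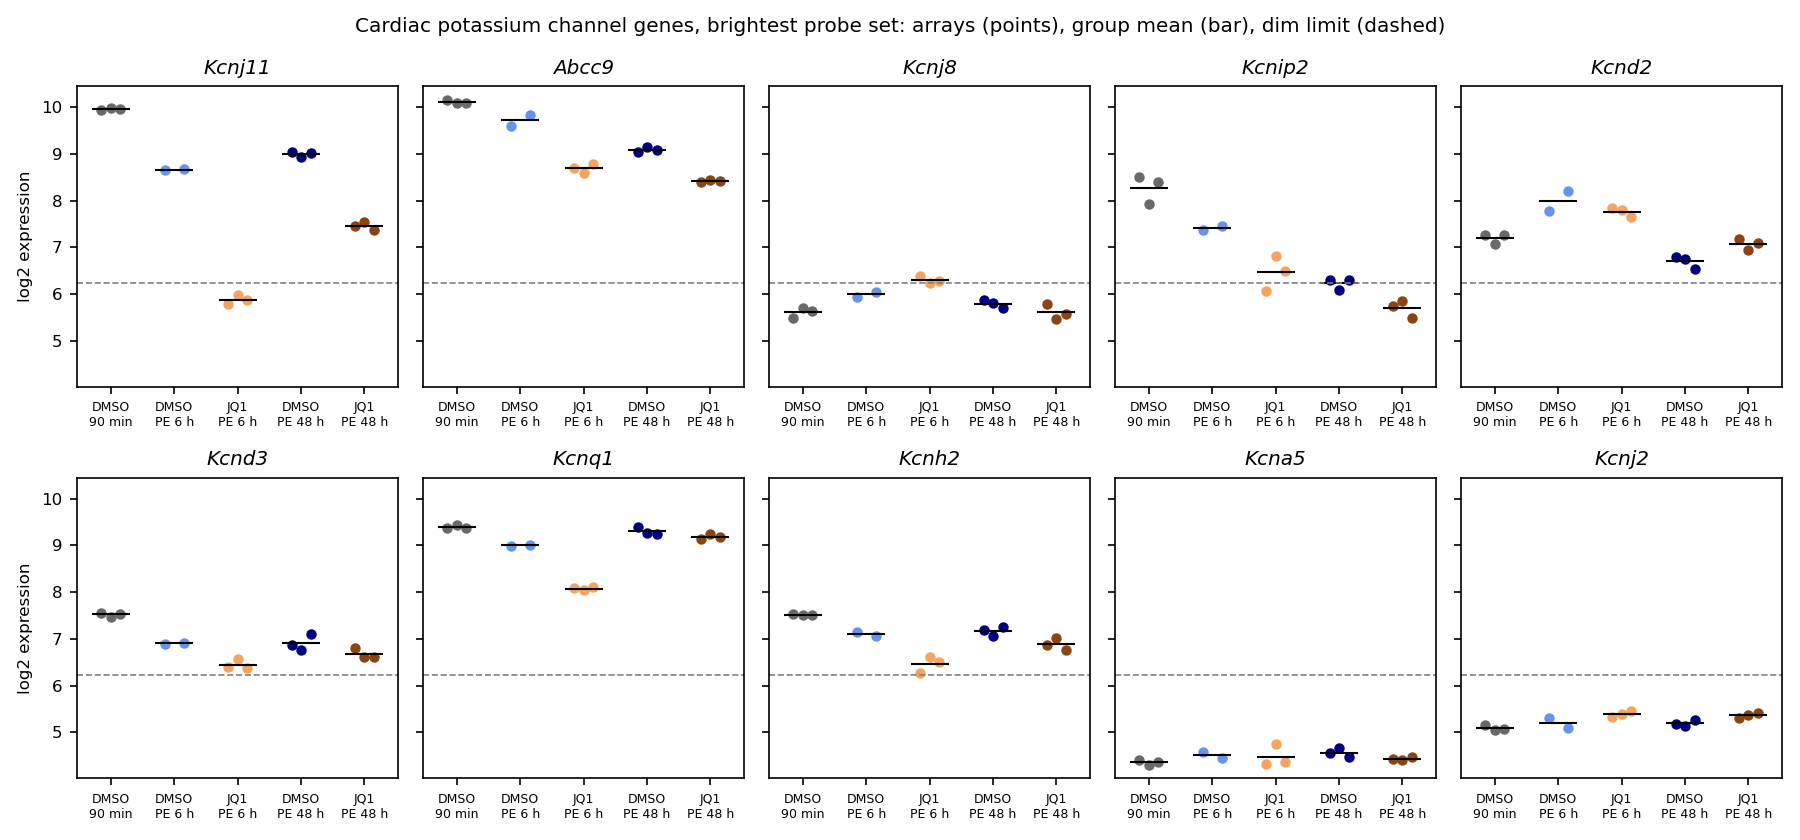
Log2 expression of each of the 10 potassium channel genes (brightest probe set) on every array; points are arrays, bars are group means, and the dashed line is the dim limit of 6.23. Kcnj11 drops from about 9.95 in unstimulated cells to 5.88 with JQ1 and PE at 6 h, while Kcna5 and Kcnj2 stay under the dashed line in all 5 groups.

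Genes of the transient outward current moved in different ways. Kcnip2 encodes KChIP2, the subunit that brings Kv4 channels to the membrane; Kcnd2 encodes Kv4.2 and Kcnd3 encodes Kv4.3, the pores of the fast current. Kcnip2 fell at 6 h of PE and again between 6 h and 48 h, Kcnd3 was low at both times, and Kcnd2 was higher at 6 h of PE and lower at 48 h than in unstimulated cells.

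Kcnip2 read 8.50, 7.93 and 8.39 unstimulated. With DMSO and PE it read 7.37 and 7.47 at 6 h and 6.30, 6.09 and 6.30 at 48 h. JQ1 with PE brought readings of 6.07, 6.82 and 6.49 at 6 h and 5.75, 5.85 and 5.48 at 48 h. The arrays of JQ1 with PE at 6 h were widely spread and overlapped those of DMSO with PE at 48 h; no other neighbours in the order of levels overlapped. PE lowered Kcnip2 by 1.81-fold at 6 h (-0.86 ± 0.20, adjusted p = 0.00493) and 4.12-fold at 48 h (-2.04 ± 0.18, adjusted p = 1.6e-06), and the fall between the times was 1.19 on the log2 scale (adjusted p = 0.000606). JQ1 lowered it by 1.94-fold at 6 h (-0.96 ± 0.20, adjusted p = 0.00133). At 48 h, where both groups were at or under the dim limit, the JQ1 difference was -0.54 ± 0.18 (adjusted p = 0.0212). This last call was lost without replicate 1 or replicate 3 of the DMSO-PE group at 48 h (adjusted p = 0.0616 and 0.0622), without replicate 3 of the JQ1-PE group at 48 h (adjusted p = 0.0854) and with quantile normalization (-0.45, adjusted p = 0.0506). The JQ1 effects at the 2 times differed by 0.42 (95% interval -0.17 to 1.01, adjusted p = 0.257), which did not pass the test.

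Kcnd2 read 7.26, 7.08 and 7.27 unstimulated. The DMSO-PE values were 7.77 and 8.21 at 6 h and 6.80, 6.75 and 6.54 at 48 h. With JQ1 and PE it read 7.84, 7.80 and 7.65 at 6 h and 7.18, 6.95 and 7.09 at 48 h. All 5 arrays at 6 h lay above the other 9, and JQ1 with PE at 48 h overlapped unstimulated cells. PE raised Kcnd2 by 1.72-fold at 6 h (0.78 ± 0.12, adjusted p = 0.000267) and lowered it by 1.42-fold at 48 h (-0.51 ± 0.11, adjusted p = 0.00226). From 6 h to 48 h of PE it fell by 1.29 on the log2 scale (adjusted p = 5.6e-06). With JQ1 it was 0.37 ± 0.11 higher at 48 h (adjusted p = 0.00978) and differed by -0.23 ± 0.12 at 6 h, which did not pass the test (adjusted p = 0.144), although it did without replicate 1 of the DMSO-PE group at 6 h (-0.45, adjusted p = 0.00868). The JQ1 effects differed between the times by 0.60 ± 0.16 (adjusted p = 0.0113). Without replicate 2 of the DMSO-PE group at 6 h that difference was 0.38 (adjusted p = 0.0660).

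Kcnd3 read 7.56, 7.47 and 7.54 unstimulated, above every other array. DMSO with PE gave 6.89 and 6.91 at 6 h and 6.87, 6.77 and 7.10 at 48 h, and these groups overlapped. The JQ1-PE values were 6.39, 6.56 and 6.37 at 6 h and 6.79, 6.61 and 6.61 at 48 h. PE lowered Kcnd3 by 1.54-fold at 6 h (-0.62 ± 0.090, adjusted p = 0.000152) and 1.53-fold at 48 h (-0.61 ± 0.081, adjusted p = 5.2e-05), with a difference of 0.01 between the times (95% interval -0.19 to 0.21). JQ1 lowered it by 1.38-fold at 6 h (-0.46 ± 0.090, adjusted p = 0.000747). At 48 h the JQ1 difference was -0.24 ± 0.081 (adjusted p = 0.0230), with arrays that overlapped. It was lost without replicate 3 of the DMSO-PE group at 48 h (-0.14, adjusted p = 0.109), without replicate 2 or 3 of the JQ1-PE group at 48 h (adjusted p = 0.0768 and 0.0776), when arrays were centred on their medians (-0.15, adjusted p = 0.122), with quantile normalization (-0.12, adjusted p = 0.214) and with only the compared groups fitted (adjusted p = 0.0672).

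Of the delayed rectifier genes, Kcnq1 and Kcnh2 fell at 6 h, and Kcnq1 was within 0.09 of its unstimulated mean after 48 h of PE. Kcnq1 encodes Kv7.1, the pore of the slow delayed rectifier, and Kcnh2 encodes ERG, the pore of the rapid one. Kcna5 encodes Kv1.5, the pore of an ultrarapid current.

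Kcnq1 read 9.38, 9.44 and 9.37 unstimulated. With DMSO and PE it read 8.99 and 9.00 at 6 h and 9.39, 9.26 and 9.25 at 48 h. JQ1 with PE gave values of 8.08, 8.04 and 8.10 at 6 h and 9.13, 9.24 and 9.18 at 48 h. The 3 arrays of JQ1 with PE at 6 h stood well under every other array, while the unstimulated group overlapped DMSO with PE at 48 h. PE lowered Kcnq1 by 1.32-fold at 6 h (-0.40 ± 0.051, adjusted p = 6.1e-05); at 48 h the difference was -0.09 ± 0.046 (adjusted p = 0.120), and it passed only without replicate 1 of the DMSO-PE group at 48 h (-0.14, adjusted p = 0.0222). PE at 48 h lay above PE at 6 h by 0.30 ± 0.051 (adjusted p = 0.000602). JQ1 lowered it by 1.90-fold at 6 h (-0.92 ± 0.051, adjusted p = 1.4e-08). The JQ1 difference at 48 h was -0.11 ± 0.046 (adjusted p = 0.0470) and became -0.03 with arrays centred on their medians (adjusted p = 0.643); it was also lost without replicate 1 of either 48 h group or replicate 3 of the JQ1-PE group at 48 h, with a replicate block and with only the compared groups fitted. The interaction was 0.81 ± 0.069 (adjusted p = 1.7e-06).

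Kcnh2 read 7.54, 7.51 and 7.50 unstimulated, the highest group. The DMSO-PE values were 7.14 and 7.06 at 6 h and 7.20, 7.06 and 7.26 at 48 h, and these overlapped. Under JQ1 and PE the arrays read 6.26, 6.62 and 6.50 at 6 h and 6.87, 7.01 and 6.76 at 48 h. PE lowered Kcnh2 by 1.34-fold at 6 h (-0.42 ± 0.097, adjusted p = 0.00412) and 1.27-fold at 48 h (-0.35 ± 0.087, adjusted p = 0.00572). JQ1 lowered it by 1.56-fold at 6 h (-0.64 ± 0.097, adjusted p = 9.8e-05) and 1.23-fold at 48 h (-0.29 ± 0.087, adjusted p = 0.0104). The 48 h call was lost without replicate 3 of the JQ1-PE group at 48 h (-0.23, adjusted p = 0.0504), with arrays centred on their medians (-0.20, adjusted p = 0.0667) and with quantile normalization (-0.18, adjusted p = 0.102). The JQ1 effects differed by 0.35 ± 0.13 between the times (adjusted p = 0.0527), just outside the threshold. It passed with quantile normalization (0.39, adjusted p = 0.0371), with dim genes left out and with trended and robust eBayes, and also without replicate 2 of the JQ1-PE group at 6 h (0.43, adjusted p = 0.0163), without replicate 3 of the DMSO-PE group at 48 h (0.39, adjusted p = 0.0462) and without replicate 3 of the JQ1-PE group at 48 h (0.41, adjusted p = 0.0296).

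Kcna5 was dim on all 14 arrays. It read 4.40, 4.31 and 4.36 unstimulated, 4.57 and 4.44 with PE at 6 h, 4.56, 4.66 and 4.47 with PE at 48 h, and 4.31 to 4.75 over the 6 JQ1 arrays. None of its 8 comparisons passed the test; the PE difference at 48 h was 0.21 (95% interval 0.00 to 0.42, adjusted p = 0.0927).

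Kcnj2 encodes Kir2.1, the main pore of the inward rectifier of ventricular muscle, and it too was dim on all 14 arrays. It read 5.15, 5.05 and 5.07 unstimulated, 5.31 and 5.08 with PE at 6 h, and 5.18, 5.14 and 5.27 with PE at 48 h. The JQ1 arrays read 5.33, 5.39 and 5.45 at 6 h and 5.30, 5.37 and 5.42 at 48 h, so all 6 JQ1 arrays were above the unstimulated arrays and each was above those of DMSO with PE at its own time. JQ1 raised Kcnj2 by 0.19 ± 0.069 at 6 h (adjusted p = 0.0328) and by 0.17 ± 0.062 at 48 h (adjusted p = 0.0356). The 6 h call was lost without replicate 2 of the DMSO-PE group at 6 h (0.08, adjusted p = 0.411) and without replicate 2 or 3 of the JQ1-PE group at 6 h (adjusted p = 0.0622 and 0.102). The 48 h call was lost without replicate 1 or 2 of the DMSO-PE group at 48 h (adjusted p = 0.0890 and 0.117) and without replicate 2 or 3 of the JQ1-PE group at 48 h (adjusted p = 0.0770 and 0.120). With trended and robust eBayes both calls were lost (adjusted p = 0.112 and 0.120), and the one at 6 h also with a replicate block (adjusted p = 0.0580) and with only the compared groups fitted (adjusted p = 0.103). The PE differences were 0.11 at 6 h (adjusted p = 0.267) and 0.10 at 48 h (adjusted p = 0.202); without replicate 2 of the DMSO-PE group at 6 h the former was 0.22 (adjusted p = 0.0343).

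**Figure D2:**
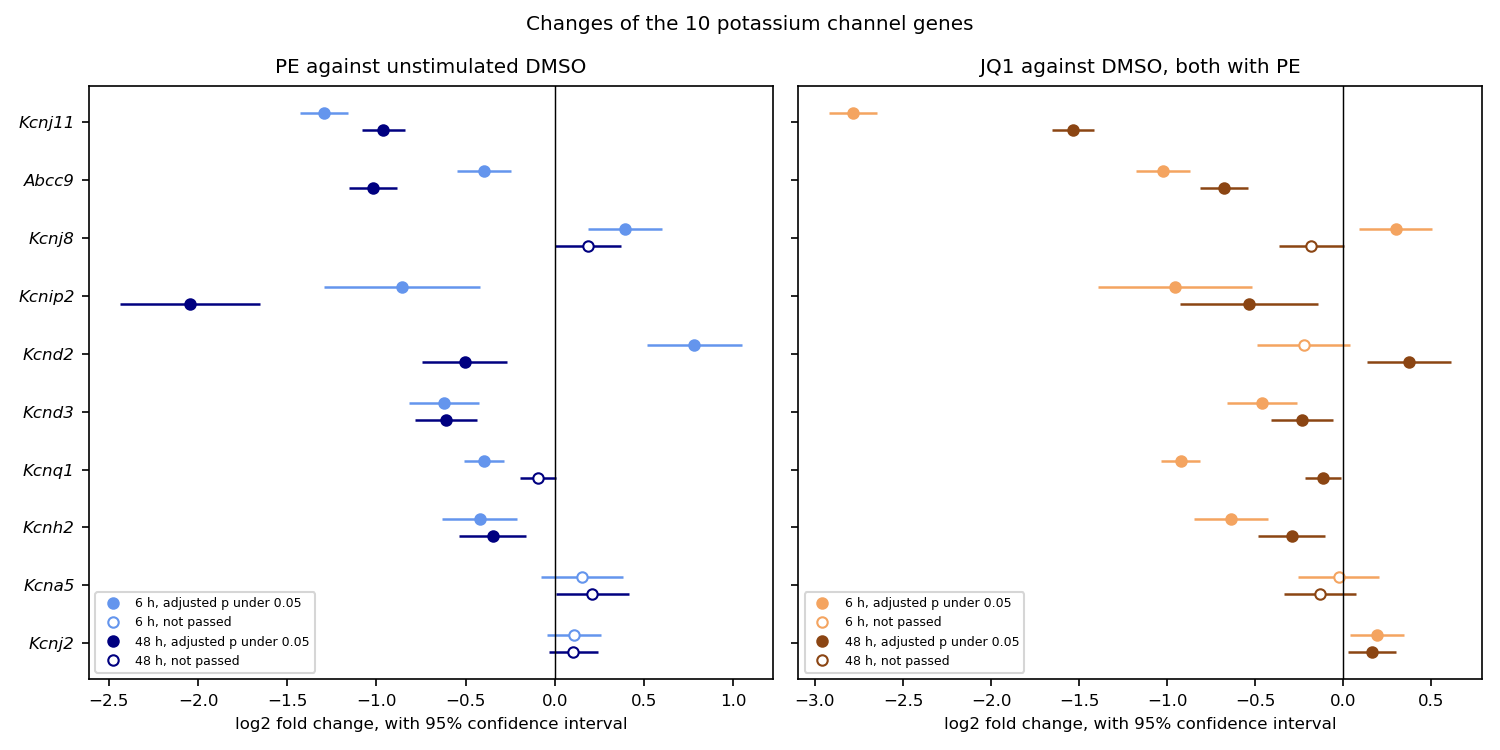
Log2 fold change of each gene for PE against unstimulated DMSO (left) and for JQ1 against DMSO with PE (right), at 6 h (light) and 48 h (dark), with 95% confidence intervals; filled points passed the test. Kcnj11 shows the largest JQ1 change, -2.78 at 6 h, and Kcnd2 lies on opposite sides of 0 at 6 h (0.78) and 48 h (-0.51) of PE.

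Counted over the 10 genes at an adjusted p under 0.05, 2 rose (Kcnj8, Kcnd2) and 6 fell with PE at 6 h, where 18.3% of all genes rose and 18.9% fell. With PE at 48 h none rose and 6 fell, against 21.4% and 22.6% of all genes. Kcnj8 and Kcna5, both dim there, did not pass with PE at 48 h (adjusted p = 0.0933 and 0.0927). Kcna5 was called as raised when only the compared groups were fitted (adjusted p = 0.0207). Between 6 h and 48 h of PE, 2 rose (Kcnj11, Kcnq1) and 3 fell, against 16.3% and 18.4% of all genes. With JQ1 at 6 h, 2 rose and 6 fell, against 25.5% and 28.8%, and at 48 h 2 rose (Kcnd2, Kcnj2) and 6 fell, against 30% and 29.6%. The fibroblast markers moved in the same comparisons, with 8 of 10 lowered by JQ1 at 6 h and 10 of 10 at 48 h; their part in these counts was not tested. The signed JQ1 change was higher at 48 h than at 6 h for 4 genes and lower for 1, against 20.4% and 18.3% of all genes. Among the 4, Kcnj11 and Abcc9 were lowered by JQ1 at both times, and less at 48 h. Kcnq1 was lowered at 6 h, while its change at 48 h (-0.11, adjusted p = 0.0470) lost the call in 6 of 13 alternatives. Against unstimulated cells, JQ1 with PE at 6 h had 3 genes higher and 6 lower (30.9% and 31.7% of all genes), and at 48 h 1 higher and 6 lower (31.6% and 29.2%). Counted in either direction, 34.6% of all genes differed between the PE times, 38.8% had a JQ1 effect that differed between the times, and 62.6% and 60.8% differed between JQ1 with PE at 6 h and 48 h and unstimulated cells. A change of at least 2-fold was reached by 1 of the 10 genes with PE at 6 h (1.54% of all genes), 2 with PE at 48 h (2.07%), 2 between the PE times (1.38%), 2 with JQ1 at 6 h (4.95%) and 1 with JQ1 at 48 h (7.44%). For the difference of JQ1 effects it was 1 gene (3.47%), and for JQ1 with PE against unstimulated cells 6 genes at 6 h (8.03%) and 3 at 48 h (6.73%). The median change of the 10 genes was -0.40 with PE at 6 h, -0.43 with PE at 48 h, -0.55 with JQ1 at 6 h and -0.21 with JQ1 at 48 h, while over all genes it was 0.01, 0.01, 0.00 and 0.02. The PE comparisons share the unstimulated arrays, and the DMSO-PE arrays are the treated side of each PE comparison and the control side of the JQ1 comparison at that time, so these counts are not independent. Across the 80 results of 10 genes and 8 comparisons, 56 passed the test, and 43 of them did so in each alternative that was run for them. Each array was left out only of the comparisons it enters, and Kcnj2 was not run with dim genes left out.

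The other probe sets of 4 genes did not all follow the brightest. For Kcnj11 the brightest probe set has the suffix that the array's maker gives to probes shared by several transcripts, so a more specific one is of interest. That one, the next brightest, read 7.19, 7.30 and 7.39 unstimulated, 6.37 and 6.46 with PE at 6 h, and 6.46, 6.43 and 6.54 with PE at 48 h. On the JQ1 arrays the values were 5.14, 5.20 and 4.56 at 6 h and 5.53, 5.32 and 5.59 at 48 h. It fell with PE (-0.88 ± 0.15 at 6 h and -0.82 ± 0.14 at 48 h) and with JQ1 (-1.45 ± 0.15 and -0.99 ± 0.14), with adjusted p of 0.00069 or less over all probe sets. It was dim in both JQ1 groups, so its JQ1 changes are of uncertain size. Its JQ1 effects differed by 0.46 ± 0.20 between the times, which did not pass the test (adjusted p = 0.111). Nor did its difference between the PE times (0.06, adjusted p = 0.831), which the brightest passed. The third Kcnj11 probe set stayed at or under the dim limit, at 5.76 to 6.23 over the 14 arrays, and none of its comparisons passed.

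The dimmer Kcnd2 probe set gave the same turn as the brightest, 0.58 ± 0.14 with PE at 6 h (adjusted p = 0.00615) and -0.42 ± 0.12 at 48 h (adjusted p = 0.0159), with values of 6.44, 6.30 and 6.42 unstimulated, 6.70 and 7.22 at 6 h and 6.20, 5.79 and 5.89 at 48 h. With JQ1 it too was higher at 48 h (0.41 ± 0.12, adjusted p = 0.0135), but the difference between its JQ1 effects, 0.49 ± 0.18, did not pass the test (adjusted p = 0.0610). The other Kcnip2 probe set was dim, at 4.38 to 4.80, and fell by 0.25 with PE at 6 h and 0.27 at 48 h, with JQ1 differences of -0.01 and 0.08 that did not pass. The other Kcnd3 probe set was dim, at 4.34 to 4.75, and did not pass in any comparison. Taking the mean of a gene's probe sets in place of the brightest therefore shrank these changes. Kcnj11 then stood at -0.75 with PE at 6 h, -0.62 at 48 h, -1.43 with JQ1 at 6 h and -0.83 at 48 h, Kcnip2 at -0.55, -1.16, -0.48 and -0.23, and Kcnd3 at -0.31, -0.21, -0.17 and -0.12. With that mean, the JQ1 calls for Kcnd3 at 6 h (adjusted p = 0.111) and 48 h and for Kcnip2 at 48 h were lost, as was the return of Kcnj11 between 6 h and 48 h of PE (0.13, adjusted p = 0.0975).

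**Figure D3:**
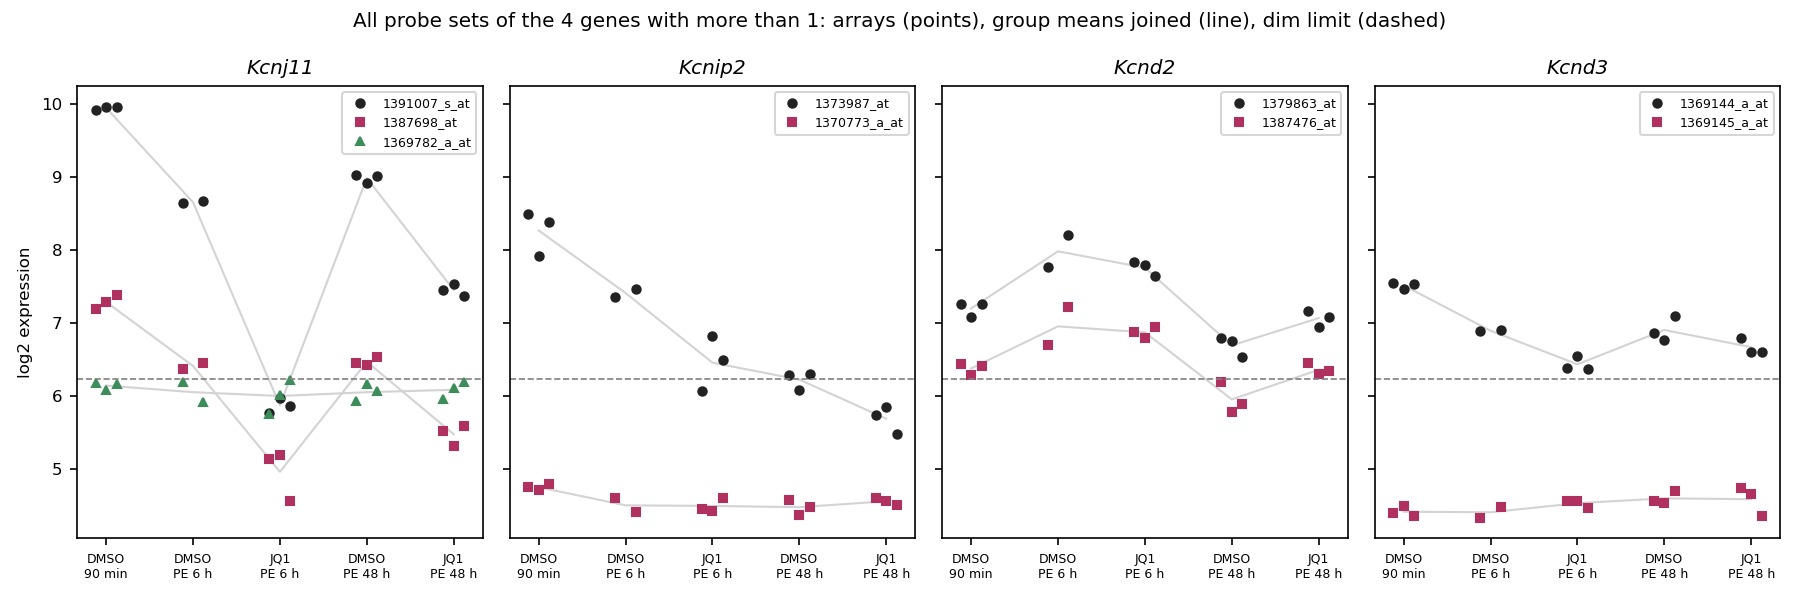
Log2 expression of every probe set of the 4 genes that have more than 1, by array; grey lines join group means and the dashed line is the dim limit. Both Kcnd2 probe sets are higher at 6 h and lower at 48 h of PE than unstimulated, JQ1 at 6 h changed the 2 brighter Kcnj11 probe sets by -2.78 and -1.45, and the third of Kcnj11 and the dim ones of Kcnip2 and Kcnd3 vary little.

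Beyond these 10, a list of 54 further genes for potassium channel pores, accessory subunits and regulators had 47 measured, of which 32 were dim in all 5 groups. With PE at 6 h 3 rose and 3 fell, with PE at 48 h 3 rose and 5 fell, with JQ1 at 6 h 2 rose and 8 fell, and with JQ1 at 48 h 3 rose and 9 fell. With single arrays left out these counts ran from 2 to 6 raised and stayed at 3 lowered for PE at 6 h, from 2 to 3 and 5 to 7 for PE at 48 h, from 0 to 3 and 7 to 9 for JQ1 at 6 h, and from 2 to 5 and 9 to 10 for JQ1 at 48 h. Without replicate 2 of the DMSO-PE group at 6 h, 6 rose with PE and 0 with JQ1 at 6 h, and without replicate 3 of the JQ1-PE group at 48 h, 5 rose with JQ1 at 48 h; without replicate 1 of the DMSO-PE group at 6 h, 2 rose with PE at 6 h, without replicate 3 of the JQ1-PE group at 6 h, 1 rose with JQ1 at 6 h, and with each other array of the 48 h groups left out in turn, 2 rose with JQ1 at 48 h. These shares are below the 37.2%, 44.1%, 54.3% and 59.6% of all genes that changed in either direction, in a list where most members are dim. The median change of the list was 0.08, 0.03, -0.07 and -0.01.

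Of the KCNE family, small membrane proteins that modulate Kv channels, Kcne1 and Kcne4 changed, while Kcne2, dim in all 5 groups, and Kcne3, near the dim limit, passed in none of the 8 comparisons. Kcne1 encodes minK, the partner that turns Kv7.1 into the slow delayed rectifier. Its group means were 6.74 unstimulated, 7.72 and 7.68 with DMSO and PE at 6 h and 48 h, and 6.43 and 5.51 with JQ1 and PE. It rose with PE by 1.97-fold at 6 h (0.98 ± 0.17, adjusted p = 0.000546) and 1.91-fold at 48 h (0.94 ± 0.15, adjusted p = 0.000258), the opposite direction to the Kcnq1 change at 6 h. JQ1 lowered it by 2.45-fold at 6 h (-1.29 ± 0.17, adjusted p = 2.7e-05, a value chosen after it was seen) and 4.49-fold at 48 h (-2.17 ± 0.15, adjusted p = 5.3e-08), to a dim level. Kcne4 fell in each: by 0.73 with PE at 6 h, 0.38 at 48 h, 1.24 with JQ1 at 6 h and 0.61 at 48 h on the log2 scale, from an unstimulated mean of 10.22.

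Among inward rectifiers of the list, Kcnj12, which encodes Kir2.2, had means of 7.14 unstimulated, 6.33 and 6.62 with DMSO and PE, and 6.14 and 7.33 with JQ1 and PE at 6 h and 48 h. It fell with PE at both times (-0.81 ± 0.11 and -0.51 ± 0.097) and was raised by JQ1 at 48 h (0.71 ± 0.097, adjusted p = 3.2e-05), with -0.19 at 6 h that did not pass (adjusted p = 0.163). Kcnj5, a subunit of the acetylcholine-activated channel, was lowered by JQ1 by 2.21-fold at 6 h (-1.14 ± 0.046, adjusted p = 9.1e-10) and by 0.23 on the log2 scale at 48 h. Abcc8, which encodes SUR1, fell with PE at 6 h (-0.77 ± 0.12) and 48 h (-0.60 ± 0.10) and with JQ1 at 6 h (-0.68 ± 0.12), while its JQ1 difference at 48 h was -0.09 (adjusted p = 0.484). The background channel gene Kcnk6 fell with JQ1 by 2.20-fold at 6 h and 2.50-fold at 48 h. Kcnk3 read 0.29 higher with JQ1 at 6 h (adjusted p = 0.0339), a call lost with the mean of probe sets (0.08, adjusted p = 0.425), with a replicate block (adjusted p = 0.0510), with only the compared groups fitted, without either array of DMSO with PE at 6 h and without replicate 2 or 3 of the JQ1-PE group at 6 h. That mean also gave smaller JQ1 changes at 6 h for Kcnj5 (-0.71) and Kcnk6 (-0.56), which still passed. The remaining genes named by the rule (Kcnk1, Kcnj14, Kcnk5, Kcnab2, Kcnab3, Kcnmb1 and Kcns3) were dim in at least 4 groups.

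A list of 6 transcription factor genes tied to these channels in the literature was measured whole, and none was dim. With PE 5 of the 6 fell at 6 h and all 6 at 48 h; JQ1 lowered 4 at 6 h, and at 48 h lowered 3 and raised 2. Over all genes 18.9% and 22.6% fell with PE at 6 h and 48 h, 28.8% were lowered by JQ1 at 6 h, and at 48 h 29.6% were lowered and 30% raised. Irx3, an Iroquois factor of the conduction system, fell with PE (-1.52 ± 0.066 and -1.36 ± 0.059 at 6 h and 48 h) and with JQ1 (-1.56 ± 0.066 and -0.89 ± 0.059). Irx5, known as a repressor of Kcnd2, fell with PE (-1.11 ± 0.11 and -0.88 ± 0.095), and its JQ1 differences of -0.11 and -0.14 did not pass. Irx4 fell with PE (-0.77 and -0.90), fell with JQ1 at 6 h (-1.27 ± 0.060) and was 0.20 ± 0.054 higher with JQ1 at 48 h (adjusted p = 0.0051). Klf15, a factor known to drive Kcnip2, fell with PE (-0.57 ± 0.074 and -0.56 ± 0.066) and rose with JQ1 at 48 h by 1.80-fold (0.85 ± 0.066). With the mean of probe sets in place of the brightest, several of these changes were smaller. Klf15 then stood at -0.13 (adjusted p = 0.128) and -0.15 (adjusted p = 0.0466) with PE at 6 h and 48 h and at 0.38 with JQ1 at 48 h. Irx5 stood at -0.58 and -0.45 with PE, Irx4 at -0.44 and -0.52 with PE and -0.62 with JQ1 at 6 h, and Irx3 at -0.96 and -0.53 with JQ1; these calls held. Tbx5 and Etv1 were lowered by JQ1 at both times, Tbx5 by 4.18-fold and 2.28-fold and Etv1 by 3.36-fold and 3.80-fold.

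**Figure D4:**
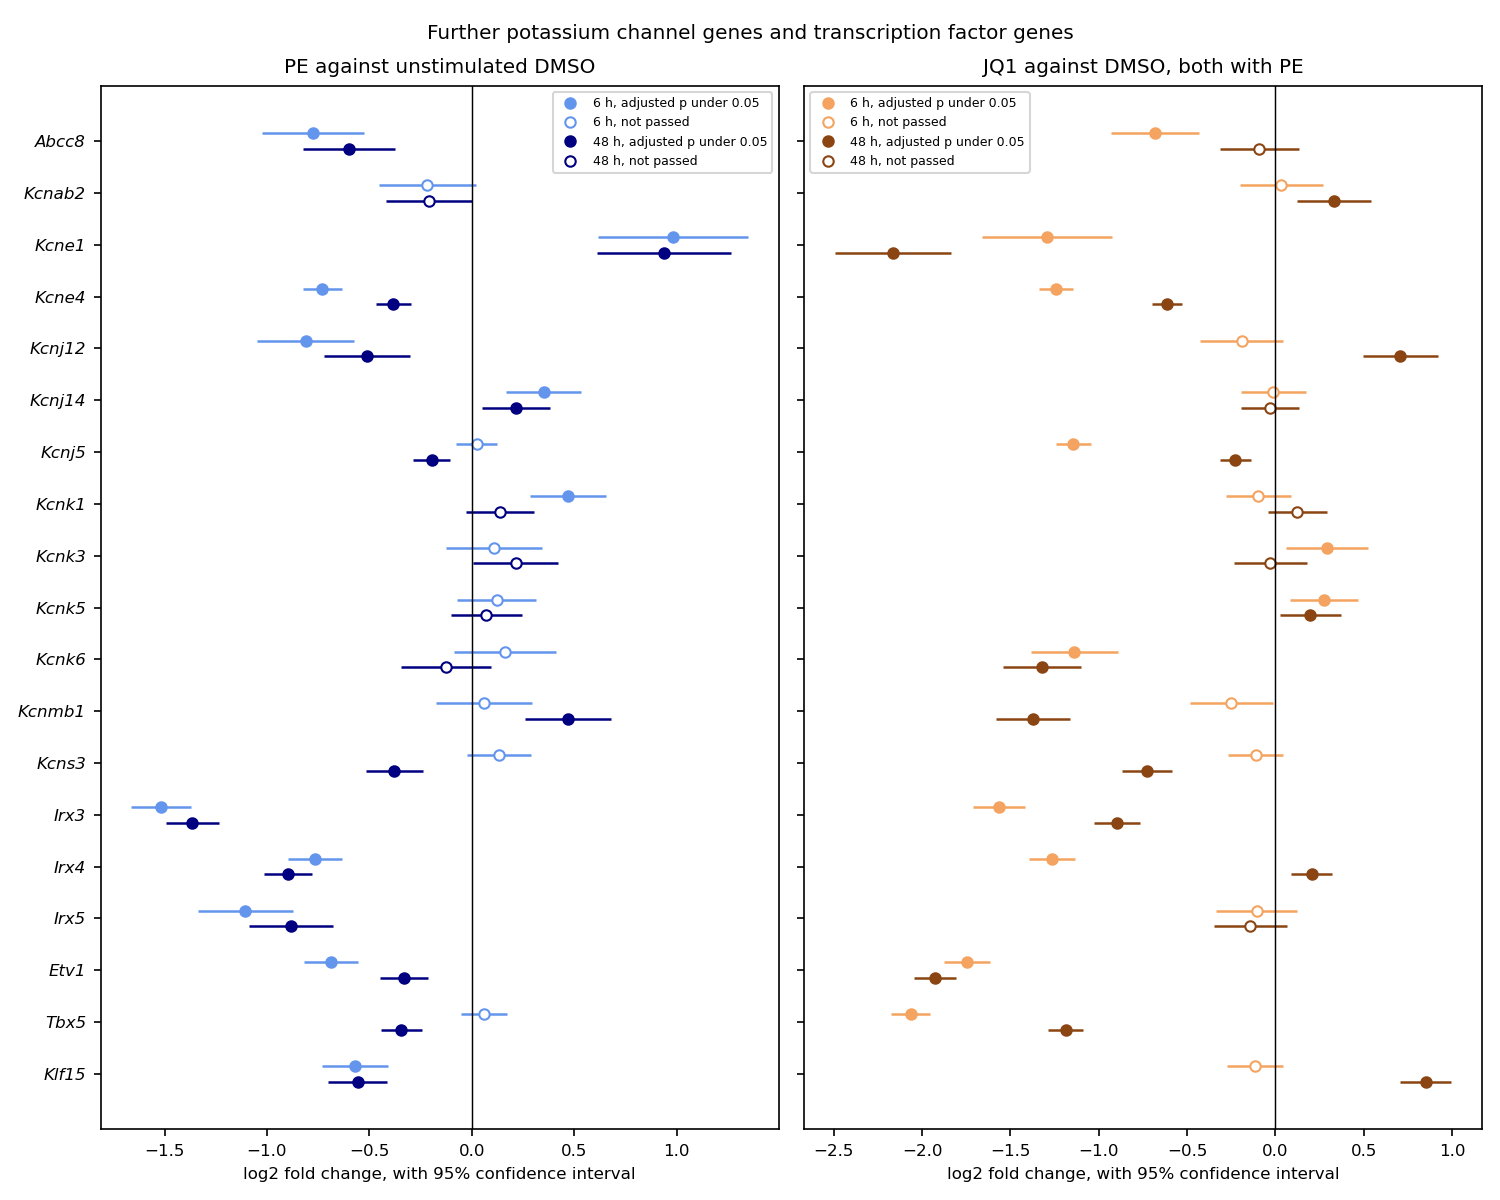
Log2 fold changes, with 95% confidence intervals, of the further potassium channel genes named by the rule for these comparisons and of the 6 transcription factor genes, for PE (left) and for JQ1 (right) at 6 h (light) and 48 h (dark); filled points passed the test. Kcne1 lies right of 0 for PE (0.98 and 0.94) and left of 0 for JQ1 (-1.29 and -2.17), and Klf15 and Kcnj12 lie right of 0 with JQ1 at 48 h.

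Genes with the most similar pattern were sought among the 2217 whose group means also spanned at least 1, by Pearson's r over the 14 arrays. These arrays fall into 5 groups, so r here mainly compares 5 group means, and it is given as a description. Closest to Kcnj11 were Cc2d2a (r = 0.997), Lrrc39 (0.993) and Gria3 (0.993); Lrrc39, which encodes an M-band protein of muscle, went from 9.56 unstimulated to 6.05 with JQ1 and PE at 6 h. Closest to Abcc9 were Mgst1 (0.985), Herpud1 (0.982) and Efnb3 (0.982), and to Kcnip2 Atp6ap1l (0.974), Mgst1 (0.955) and Adamtsl2 (0.955). Kcnd2 was nearest to Slc20a2 (0.972), a phosphate transporter gene, then Slc1a1 (0.941) and Plpp3 (0.932), and Kcnd3 to Nme4 (0.975), Adra1b (0.975) and Tmem140 (0.964). Adra1b encodes the alpha1B-adrenergic receptor, on which PE acts, and went from 11.03 unstimulated to 9.51 and 9.35 with PE. Kcnq1 was nearest to Unc45b (0.991), which encodes a myosin chaperone of striated muscle, Apbb1 (0.990) and Anp32a (0.990). Kcnh2 was nearest to Chst14 (0.979), Adm (0.970) and Kcnj11 itself (0.969), the only case in which 1 of the 10 genes was among the 3 nearest to another.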

How the data were processed

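Gene expression was measured on 14 Affymetrix arrays of biotin-labelled RNA, per the labels' protocols. The authors deposited log2 values per probe set; the closely matching distributions point to normalization between arrays, whose method is not given in the sources used here. Limma is named, with no role, in the submitters' processing notes. Of 20223 probe sets, 18510 had 1 symbol, 305 several and 1402 none, and 6 were controls. Symbols were updated through the RefSeq gene table by identifier (18461) or accession (1), and 48 kept the platform's.

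A linear model with group means was fitted across the 14 arrays in limma (version 3.58.1, lmFit then eBayes, R 4.3.3), leaving 9 residual degrees of freedom. Two-sided p-values were adjusted by Benjamini-Hochberg over 13184 genes, or over all probe sets for other probe sets, at 0.05. The median standard error was 0.060 for 3 against 3 arrays and 0.068 with the group of 2, and the number of arrays limits precision. Promoters came from RefSeq, GRCr8. The fit was tested on simulated data.

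The 10 genes and the lists were chosen with earlier results of these data known. Up to 3 further channel genes per direction and comparison were named by smallest adjusted p. Alternatives were quantile normalization, median centring, mean of probe sets, dim genes left out, trended and robust eBayes, only the compared groups, a replicate block, and each array left out.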

Additional observations from a re-analysis of the deposited data

Results flagged for a closer look

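For 5 of the 10 potassium channel genes the effect of JQ1 differed between 6 h and 48 h of PE by a test of the difference itself, an interaction term in limma. For Kcnj11 the JQ1 change at 48 h minus that at 6 h was 1.25 (adjusted p = 2.1e-07). Kcnj11 was lowered at both times, and less at 48 h. The second Kcnj11 probe set, dim in both JQ1 groups, gave 0.46, which did not pass (adjusted p = 0.111). For Kcnq1, whose JQ1 call at 48 h was lost in 6 of 13 alternatives, the difference was 0.81 (adjusted p = 1.7e-06). It lay between a fall of 0.92 at 6 h and another of 0.11 at 48 h on the log2 scale. For Kcnd2 it was 0.60 (adjusted p = 0.0113), between -0.23, which did not pass, and 0.37; by the dimmer Kcnd2 probe set it was 0.49 and did not pass (adjusted p = 0.0610). For Abcc9, lowered at both times, it was 0.35 (adjusted p = 0.0105). Without replicate 2 of the DMSO-PE group at 6 h the Abcc9 difference was 0.23 and that of Kcnd2 0.38. For Kcnj8, dim in most groups, it was -0.48 (adjusted p = 0.00954), between 0.30 at 6 h and -0.18 at 48 h, which did not pass. Over all genes 38.8% had such a difference. No group held 4 arrays, so single outlying arrays were not tested for.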

How the results depend on the processing

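Of 1044 repeats of the 80 results for the 10 genes, 992 kept their side of the threshold, 40 lost the call and 12 gained one. None reversed while called. Uncalled results could change sign and still count as kept, as the Kcnd3 difference between the PE times did (-0.08 to 0.10). Counts over all genes stayed within 1.5 times. All PE calls at 48 h and all 9 calls of JQ1 with PE at 6 h against unstimulated cells held in each alternative run for them, whereas 3 of 8 JQ1 calls at 48 h did (Kcnj11, Abcc9 and Kcnd2); Kcnj2 and Kcna5 have no value with dim genes left out.

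The number of the 10 genes raised by JQ1 at 6 h fell from 2 to 1 with a replicate block, with dim genes left out, with trended and robust eBayes, with only the compared groups, and to 1 without any single array of either group. The number raised by JQ1 at 48 h became 1 with dim genes left out and with trended and robust eBayes, and was 1 to 2 with arrays left out in turn. The number lowered by JQ1 at 48 h became 3 with quantile normalization or median centring, and was 2 to 6 with arrays left out, lowest without replicate 3 of the JQ1-PE group at 48 h. The number raised from 6 h to 48 h of PE became 1 with the mean of probe sets, the number raised by PE at 48 h became 1 (Kcna5, 0.21, adjusted p = 0.0207) with only the compared groups, and the number higher with JQ1 and PE at 48 h than unstimulated became 0 with dim genes left out, which removes Kcnj2 and Kcna5 by construction (9634 genes and 8 of the 10 stay). The number whose signed JQ1 change was higher at 48 h than at 6 h was 2 to 6 with arrays left out. It was lowest without replicate 2 of the DMSO-PE group at 6 h. Centring moved the median of all genes from 0.00 to 0.09 for JQ1 at 6 h and from 0.02 to 0.11 at 48 h. For PE it moved only from 0.01 to 0.02 at both times. For JQ1 with PE against unstimulated cells it moved from 0.03 to 0.12 at 6 h and from 0.03 to 0.13 at 48 h. Kcnq1 then missed the last comparison (-0.11, adjusted p = 0.0586). The cause of other changes was not tested.

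The labels number arrays 1 to 3 in each group, or 1 to 2 in DMSO with PE at 6 h. The numbers showed no pairing: deviations of 26 same-numbered pairs correlated at -0.27 to 0.18, and 1 of 14 arrays correlated best with its own number. Deviations from the mean of so few arrays are tied to each other, so these correlations cannot exclude pairing. With the replicate block, 78 of 80 results were unchanged in call; Kcnj2 with JQ1 at 6 h (0.17, adjusted p = 0.0580) and Kcnq1 with JQ1 at 48 h (-0.11, adjusted p = 0.0705) were lost.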
